A study of Mus musculus with 20 samples.

Results

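Potassium channel genes are described here in mouse embryonic stem cells and during their differentiation to neural progenitor cells. The set holds the 93 protein-coding genes whose symbol begins with Kcn followed by letters and a digit, out of 21897 protein-coding genes and 35975 genes in all. The rule reads the symbol and no measured value, and the set was proposed with earlier results of these data known. By symbol stem there are 30 voltage-gated pore subunits, 10 silent voltage-gated subunits and 8 channels grouped as ion-activated (Kcnma, Kcnn, Kcnt and Kcnu). A further 15 are inward rectifiers, 14 are two-pore channels and 16 are accessory subunits. Polyadenylated RNA was sequenced from TKO and WT cells of the line ES-E14TG2a, a feeder-free mouse embryonic stem cell line, in 10 groups of 2 libraries. Cells at D0 were stem cells grown in serum with leukemia inhibitory factor. Cells at D2, D4, D6 and D8 had been moved onto laminin in N2B27, a serum-free medium, without that factor being listed. The labels do not say which genes TKO stands for, nor how many clones the TKO cells came from.

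Potassium channels let potassium ions leave or enter a cell and so set its resting voltage and end its electrical spikes. Voltage-gated channels open when the membrane depolarises, and silent subunits form no channel alone but change the behaviour of Kv2 channels. Inward rectifiers and two-pore channels carry current near rest, and accessory subunits alter the gating or traffic of the pores they bind. Neurons are known for their broad use of these genes, and stem cells and progenitors also use several of them.

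Totals per library ran from 26015282 to 38074768 estimated counts. Dnmt1, the maintenance DNA methyltransferase, measured 74.8 to 96.7 CPM in the 10 TKO libraries, against 293 to 484 CPM in the 10 WT libraries. CPM is counts per 1e+06 after scaling of the libraries (TMM). Dnmt3a, a de novo methyltransferase, was also lower in TKO at each day, with 7.87 to 65.8 CPM in TKO and 85.7 to 611 CPM in WT. Marker lists of several cell types, not all of them named by the labels, were read in TPM, which scales counts by transcript length. The 9 neuron markers summed to 587 and 586 TPM in TKO D8, against 2664 and 2713 TPM in WT D8. The 5 pluripotency markers summed to 896 and 844 TPM in TKO D8, against 64.6 and 42.4 TPM in WT D8. Neural progenitor markers were lower in TKO D8 for 7 of 7 genes, and trophoblast markers were higher for 4 of 5 and germ cell markers for 3 of 3. The labels name no trophoblast or germ cells. The germ cell markers Ddx4 and Mael averaged 17.6 and 5.24 CPM in WT D0 stem cells, so their level alone does not show such cells. Every D8 comparison was made across these differences in markers, whose part in the channel values was not tested. In bulk RNA, fewer cells of a type and less RNA per cell cannot be told apart. The WT D0 replicates differed most from each other (chi-square over degrees of freedom 27.2, against 2.88 to 10.6 in the other groups).

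Of the 93 genes, 79 had enough counts to be tested and 14 did not. The filter keeps a gene that is expressed in 1 group alone, so the tested genes are not a summary of all 93. Closest to the filter were Kcnk16, a two-pore channel, with at most 0.475 CPM in a group, and the inward rectifiers Kcnj6 with 0.370 CPM and Kcnj15 with 0.310 CPM. Kcna10 had 1 count over all 20 libraries. Kcnj13 shares 44.8% of its 31-mers with other genes, Kcnj14 shares 35.6% and Kcnk4 shares 14.9%, so their counts are uncertain. A gene is called higher or lower below only where the edgeR quasi-likelihood test gave an adjusted p under 0.05, with adjustment over all 18555 genes tested.

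Promoters of 4 genes from both sides of the D8 comparison are shown first, to make their CG content visible. The window runs from 250 bases before to 50 bases after a transcript start in RefSeq (GRCm38.p6), and capitals mark each CG dinucleotide. Kcng3 and Kcns3, silent subunits, were higher in TKO D8. Kcnd3, the Kv4.3 channel of the A-type current, and Kcnk10, the two-pore channel TREK-2, were lower in TKO D8. The windows lie at chr17:83631846-83632145 (minus strand) for Kcng3, chr12:11150324-11150623 (minus strand) for Kcns3, chr3:105451640-105451939 (plus strand) for Kcnd3 and chr12:98575078-98575377 (minus strand) for Kcnk10. The RefSeq start is that of the most abundant transcript for Kcng3 and Kcns3, and lies 440 bases from it for Kcnd3 and 415 bases from it for Kcnk10.
Kcng3: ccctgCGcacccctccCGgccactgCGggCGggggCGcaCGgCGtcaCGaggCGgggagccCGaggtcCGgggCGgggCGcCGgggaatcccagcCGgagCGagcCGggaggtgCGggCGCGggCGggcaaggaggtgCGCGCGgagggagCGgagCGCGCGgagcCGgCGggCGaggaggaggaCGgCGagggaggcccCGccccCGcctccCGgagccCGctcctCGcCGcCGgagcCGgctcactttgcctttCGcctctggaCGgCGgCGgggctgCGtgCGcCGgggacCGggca
Kcns3: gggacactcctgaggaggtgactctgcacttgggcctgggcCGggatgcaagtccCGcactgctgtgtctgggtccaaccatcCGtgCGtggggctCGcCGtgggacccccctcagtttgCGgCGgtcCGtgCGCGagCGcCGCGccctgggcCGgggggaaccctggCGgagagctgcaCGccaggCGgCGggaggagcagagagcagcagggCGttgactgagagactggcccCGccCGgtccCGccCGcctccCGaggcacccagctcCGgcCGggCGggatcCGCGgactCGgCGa
Kcnd3: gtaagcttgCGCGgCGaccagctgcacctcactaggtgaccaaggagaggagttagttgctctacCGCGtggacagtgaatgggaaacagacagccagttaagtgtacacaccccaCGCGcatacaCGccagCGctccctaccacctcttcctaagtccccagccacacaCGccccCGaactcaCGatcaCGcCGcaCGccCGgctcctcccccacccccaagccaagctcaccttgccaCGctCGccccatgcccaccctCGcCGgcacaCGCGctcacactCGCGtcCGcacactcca
Kcnk10: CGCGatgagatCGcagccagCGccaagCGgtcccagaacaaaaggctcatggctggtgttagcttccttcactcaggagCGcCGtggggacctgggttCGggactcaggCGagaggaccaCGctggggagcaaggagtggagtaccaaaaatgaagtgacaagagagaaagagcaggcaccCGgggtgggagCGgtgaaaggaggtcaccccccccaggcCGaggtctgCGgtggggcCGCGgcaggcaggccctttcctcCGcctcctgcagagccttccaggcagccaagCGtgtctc
The Kcng3 window holds 49 CG, a number reached by 1.0% of all 32851 promoter windows in the table. Kcns3 has 32 CG (reached by 9.5%), Kcnd3 has 25 (18.4%) and Kcnk10 has 18 (29.7%). A promoter was in the table for 68 of the 93 genes. Their median CG number was 14, beside 7 over all windows. The median was 20 for the 18 with a window that were higher in TKO D8 and 22 for the 20 that were lower, beside 10 for the 17 that did not pass and 6 for the 13 that were not tested. Some of these windows lie far from the start of the most abundant transcript, by 272081 bases for Kcnma1, 99919 for Kcnk2 and 22013 for Kcnh2. The medians thus describe RefSeq starts, which need not be the starts used in these cells. CAGCTG, an E-box that reads the same on both strands, stood in 22.1% of the 68 windows and in 16.3% of all windows, and among the 4 shown only in Kcnd3. TATAAA, searched on both strands, stood in 4.4% of the 68 and in 13.6% of all windows.

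Potassium channel transcripts increased over differentiation in both genotypes, and far more in WT at the last day. The summed level of all 93 genes in TKO was 137 ± 5.70, 161 ± 1.82, 181 ± 0.727, 200.3 ± 1.94 and 228 ± 4.95 TPM from D0 to D8 (SD, n = 2 each). In WT it was 133 ± 0.739, 126 ± 9.74, 161 ± 2.35, 185 ± 5.36 and 392 ± 14.7 TPM (SD, n = 2 each). Both TKO libraries lay above both WT libraries at D2, D4 and D6, and both lay below them at D8. At 1 TPM or more, 42 of the 93 genes were present in TKO D8 and 50 in WT D8, against 27 in TKO D0 and 26 in WT D0.

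The D8 gap lay in the voltage-gated pore subunits. They summed to 94.4 and 92.7 TPM in TKO D8, against 255 and 240.1 TPM in WT D8. Accessory subunits summed to 22.5 and 22.0 TPM in TKO D8, against 41.8 and 42.2 TPM in WT D8, and ion-activated channels to 17.6 and 15.1 TPM, against 34.8 and 33.4 TPM. The sum of two-pore channels went the other way, with 74.3 and 69.5 TPM in TKO D8 and 50.7 and 45.5 TPM in WT D8. A single gene, Kcnk1, made up 61.0% of that sum in TKO D8. In WT D8 the largest part was Kcnk10, at 32.5%, so the two-pore sums do not stand for the family gene by gene. Silent subunits also summed higher in TKO, with 9.10 and 9.23 TPM in TKO D8 and 6.66 and 6.47 TPM in WT D8. Inward rectifiers overlapped, at 13.6 and 16.1 TPM in TKO D8 and 13.4 and 13.8 TPM in WT D8. These sums are a description and were not tested.

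**Figure D1:**
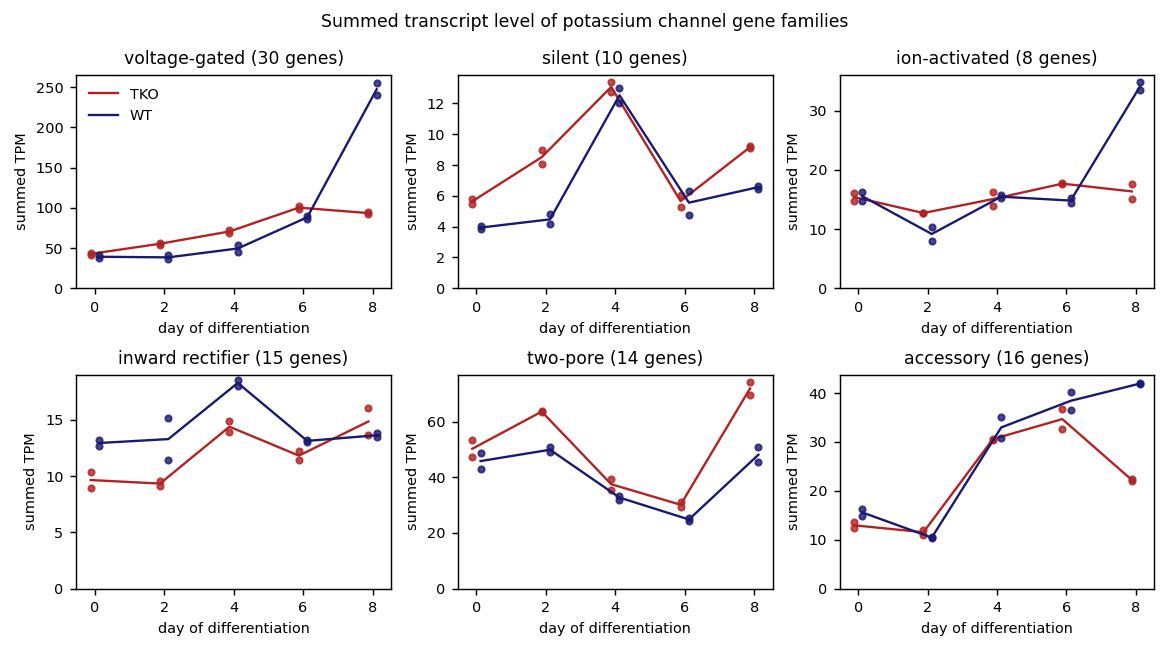
Summed TPM of each potassium channel family (vertical axis) by day of differentiation (horizontal axis). Points are single libraries and lines join the means of 2 libraries, TKO in red and WT in dark blue. Voltage-gated subunits reach 94.4 and 92.7 TPM in TKO D8 against 255 and 240.1 TPM in WT D8, while two-pore channels reach 74.3 and 69.5 TPM in TKO D8 against 50.7 and 45.5 TPM in WT D8. Kcnk1 alone makes up 61.0% of the two-pore sum in TKO D8.

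The most abundant channel per transcript length changed with the day. Kcnk5, the acid-sensitive two-pore channel TASK-2, led at D0 with 22.3 and 27.0 TPM in TKO and 30.4 and 27.0 TPM in WT. At D8 Kcnk1, the two-pore channel TWIK-1, led in TKO with 46.5 and 41.2 TPM. In WT D8 the lead was Kcnh2, the hERG channel that repolarises heart cells, with 105 and 102 TPM.

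Each later day was compared with stem cells within a genotype. In TKO D2, 20 potassium channel genes were higher than in D0 and 13 lower, where 26.6% and 26.9% of all genes tested were. TKO D4 had 35 higher and 11 lower (all genes 34.4% and 32.1%), and TKO D6 had 37 higher and 20 lower (36.1% and 35.8%). TKO D8 had 45 of 79 higher and 10 lower (34.2% and 30.8%), with a median log2 fold change of 1.00 beside 0.05 for all genes. In WT D2, 13 were higher and 20 lower (all genes 25.8% and 28.9%). WT D4 had 34 higher and 19 lower (33.1% and 31.8%), and WT D6 had 30 higher and 28 lower (35.2% and 35.9%). WT D8 had 41 of 79 higher and 19 lower (37.8% and 39.0%), with a median log2 fold change of 1.26 beside 0.00 for all genes. By D8 the higher calls thus took a larger share of the potassium channel genes than of all genes in both genotypes.

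The last interval was also compared within each genotype. In TKO D8 against D6, 25 genes were higher and 14 lower, where 25.5% and 24.5% of all genes were. In WT D8 against D6, 43 were higher and 6 lower (26.6% and 30.4%). Mean CPM was highest at D8 for 24 of the 79 genes in TKO and 36 in WT, and both D8 libraries lay above those of the next highest day for 17 of them in TKO and 29 in WT. It was highest at D6 for 22 genes in TKO and 7 in WT, of which 11 in TKO and 5 in WT stood apart in that way. The day of the highest mean was not counted over all genes tested, so whether these numbers are particular to potassium channel genes is not known.

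Kcnk9, Kcnk10 and Kcnd3 had the highest log2 fold changes of WT D8 against D0. Kcnk9, the acid-sensitive two-pore channel TASK-3, measured 37.1 and 35.6 CPM in WT D8, against 0.0319 and 0.0974 CPM in WT D0 (log2 fold change 9.05, SE 0.29, adjusted p = 5.98e-15 in edgeR). In the alternative edgeR fits this Kcnk9 fold change ran from 8.47 to 9.97, a wider range than the SE conveys. Kcnk10 measured 25.7 and 24.5 CPM in WT D8, against 0.0638 and 0.0650 CPM in WT D0 (log2 fold change 8.52). Kcnd3 measured 38.9 and 38.8 CPM in WT D8, against 0.0319 and 0.292 CPM in WT D0 (log2 fold change 7.88). Kcnc1, the Kv3.1 channel of fast-spiking neurons, and Kcnb2, the delayed rectifier Kv2.2, rose with log2 fold changes of 6.58 and 6.52. Kcna1, the Kv1.1 channel of axons, had 1 count in WT D0 and 220 in WT D8, a ratio of 199 with a 95% counting interval of 35.4 to 7913.

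Other members fell in WT. Kcna7, a Kv1 channel best known from muscle, had 1 count in WT D8 and 81 in WT D0, a ratio of 0.0112 with a counting interval of 0.00028 to 0.0642. The silent subunits Kcns2 and Kcns3 fell as well (log2 fold changes -3.62 and -3.36). Kcnk5 fell to 6.94 and 7.61 CPM in WT D8, against 69.8 and 62.1 CPM in WT D0 (log2 fold change -3.18). Kcnh3, an Elk-type channel of the forebrain, and Kcnab3, a beta subunit of Kv1 channels, fell too (log2 fold changes -3.17 and -2.61).

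In TKO the order of the rises was different. Kcnk10 had 343 counts in TKO D8 and 1 in TKO D0, a ratio of 314 with a counting interval of 55.9 to 12430. Kcnk2, the stretch-sensitive two-pore channel TREK-1, had 123 and 1 counts, a ratio of 112 with an interval of 19.8 to 4479. Kcnc1 reached 6.08 and 6.52 CPM in TKO D8, against 0.174 and 0.183 CPM in TKO D0 (log2 fold change 5.11, SE 0.23). Kcna2, an axonal Kv1 channel, and Kcnd3 rose with log2 fold changes of 4.12 and 3.84, and Kcna6, another Kv1 channel, had 118 counts in TKO D8 against 3 in TKO D0, a ratio of 35.97 with an interval of 12.01 to 177. Falls in TKO were smaller. Kcnip2, an accessory subunit of Kv4 channels, had a log2 fold change of -1.89, and the glial inward rectifier Kcnj10 one of -1.72. The inward rectifiers Kcnj12 and Kcnj4 had -1.46 and -0.99, Kcnu1, a channel of sperm, had -1.38 and Kcnk5 had -1.08. The Kcnip2 and Kcnu1 calls were lost when single libraries were left out, and that of Kcnu1 also with length-scaled TPM.

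TKO was then compared with WT on each day. In D0 11 potassium channel genes were higher in TKO and 14 lower, where 19.4% and 19.9% of all genes tested were. That is 13.9% and 17.7% of the 79, not above the share of all genes in either direction. D2 had 23 higher and 5 lower (all genes 18.4% and 16.9%), and D4 had 16 higher and 11 lower (15.1% and 13.2%). D6 had 29 higher and 11 lower (20.9% and 20.3%), and D8 had 25 higher and 31 lower (35.8% and 31.8%). Higher calls exceeded lower calls at D2, D4 and D6, and at D8 lower calls were the more numerous. The lead of lower calls at D0 turned under other settings, with 12 higher and 8 lower in DESeq2 and 10 higher and 7 lower from length-scaled TPM. At D4 length-scaled TPM gave 9 higher and 10 lower. Without WT D2 replicate 2 the fit gave 17 calls at D2, against 28 with it, and without TKO D4 replicate 2 it gave 14 at D4, against 27.

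**Figure D2:**
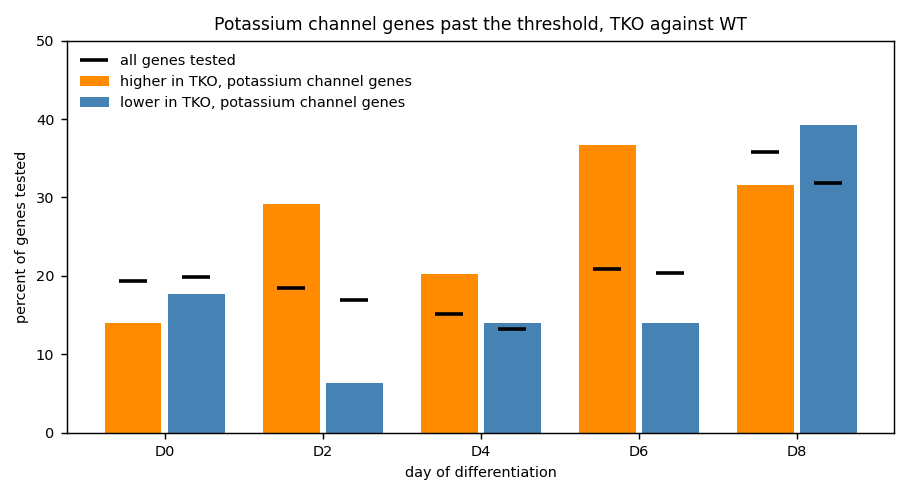
Percent of the 79 tested potassium channel genes that were higher (orange) or lower (blue) in TKO than in WT (vertical axis) on each day (horizontal axis). Black marks give the percent of all 18555 genes tested. Higher calls lie above their mark at D2, D4 and D6, and lower calls lie furthest above theirs at D8.

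Neuron markers were read on the same days. Of the 9, 7 were higher in TKO at D2 and none lower, and 5 were higher and 1 lower at D4. At D6 8 were higher, and at D8 9 were lower. At D4 their sum was lower in TKO, at 197 and 190 TPM against 272 and 284 TPM in WT, unlike the channel sum. Stmn2, 1 of the 9, averaged 106 CPM in TKO D4 and 234 CPM in WT D4. As more markers were called higher than lower at D4, that sum does not stand for the set. The sum of the neuron markers at D6 was 807 and 1034 TPM in TKO, against 583 and 539 TPM in WT. Endoderm markers were also higher in TKO, with 6 of 6 at D0 and D2, 5 of 6 at D4 and D6 and 3 of 6 at D8, at a sum of 103 and 113 TPM in TKO D0 against 6.12 and 7.04 TPM in WT D0. Afp and Ttr were at 0 in WT D0. The part of these cells in the channel values was not tested.

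Of the 79 genes, 5 passed in 1 direction on all 5 days. Among them Kcnq3, Kcnq5 and Kcns3 were higher throughout and Kcnab2 was lower throughout. The Kcnq5 call at D2 was lost with length-scaled TPM, and the Kcnab2 call at D2 was lost with only the groups compared and without replicate 2 of either D2 group. A further 8 passed on no day, 17 passed in both directions on different days, and the others passed on some days in 1 direction. Days were not counted in this way over all genes tested, so these numbers cannot be read as particular to potassium channel genes.

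Kcnq5, a slow Kv7 channel of the neuronal M-current, had the highest log2 fold change in stem cells among members at 1 CPM or more in a D0 group. It measured 2.93 and 2.56 CPM in TKO D0, against 0.160 and 0.325 CPM in WT D0 (log2 fold change 3.49, SE 0.29, adjusted p = 6.78e-08 in edgeR). TKO levels at D2, D4, D6 and D8 averaged 1.685, 3.43, 4.20 and 4.87 CPM, and WT levels 0.160, 0.678, 1.08 and 3.44 CPM. The libraries did not overlap on any day, and the gap was smallest at D8 (log2 fold change 0.50). WT first came to the level of TKO D0 at D8, with 3.73 and 3.15 CPM.

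Kcnq3, another subunit of the M-current, measured 1.64 and 2.23 CPM in TKO D0, against 1.24 and 1.04 CPM in WT D0. At D6 it measured 5.07 and 3.86 CPM in TKO, against 1.09 and 1.19 CPM in WT (log2 fold change 1.97, SE 0.20, adjusted p = 4.38e-07 in edgeR). Kcnq3 was called at D0 with a log2 fold change of 0.76, a call lost with only the groups compared and when replicate 2 of either D0 group was left out.

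Kcnq1, which lies in an imprinted region and works in heart and epithelia, was low everywhere. It had 0.175 and 0.0919 CPM in TKO D8, against 0.626 and 0.779 CPM in WT D8 (log2 fold change -2.38, SE 0.53, adjusted p = 0.000638 in edgeR), and no other day passed.

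Kcnab2, a beta subunit of Kv1 channels, had 2.12 and 1.54 CPM in TKO D0 and 3.03 and 2.44 CPM in WT D0. At D8 it had 3.92 and 3.46 CPM in TKO, against 12.1 and 11.1 CPM in WT (log2 fold change -1.65, SE 0.18, adjusted p = 2.36e-07 in edgeR). The Kcnab2 call at D0, with an adjusted p of 0.0467, was lost with the replicate block, with length-scaled TPM, with only the groups compared and without several single libraries.

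**Figure D3:**
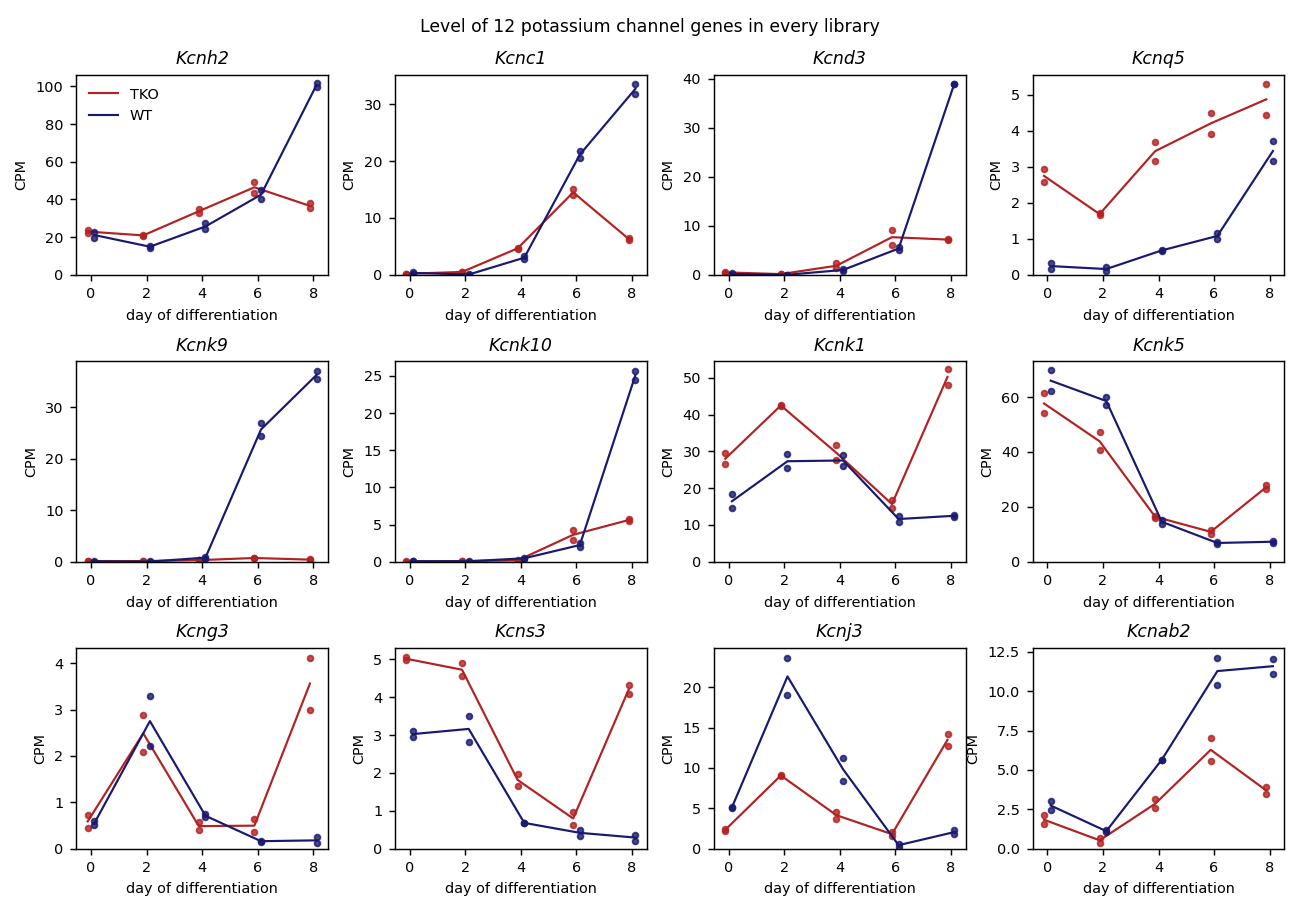
CPM (vertical axis) of 12 potassium channel genes by day of differentiation (horizontal axis), with points for single libraries and lines through the means of 2 libraries, TKO in red and WT in dark blue. Kcnk9 stays under 1 CPM in TKO and reaches 37.1 and 35.6 CPM in WT D8, and Kcns3, Kcnj3 and Kcng3 are higher at D8 than at D6 in TKO.

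Over all genes tested 35.8% were higher and 31.8% lower in TKO D8, and each family's count is set against these shares. At D8 the voltage-gated pore subunits held 9 higher and 16 lower of 29 tested, with a median log2 fold change of -1.12. The delayed rectifier Kcnb2 had 1.57 and 1.01 CPM in TKO D8, against 9.07 and 9.44 CPM in WT D8 (log2 fold change -2.85, SE 0.26, adjusted p = 3.64e-08 in edgeR). Kcnd3 had 7.20 and 7.17 CPM in TKO, against 38.9 and 38.8 CPM in WT (log2 fold change -2.43, SE 0.23). Kcnh2 had 37.9 and 35.3 CPM in TKO, against 102 and 99.7 CPM in WT (log2 fold change -1.46, SE 0.09). None of these libraries overlapped between the genotypes.

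Further Kv members lay on the same side. Kcnc1 had 6.08 and 6.52 CPM in TKO D8, against 33.5 and 31.8 CPM in WT D8 (log2 fold change -2.37). Kcnh1, an Eag channel of the brain, had 3.60 and 3.95 CPM in TKO, against 21.6 and 20.5 CPM in WT (log2 fold change -2.48). Kcna1 had 0.489 and 0.521 CPM in TKO, against 2.87 and 3.56 CPM in WT (log2 fold change -2.66). Kcna1 lies beside Kcna5 and Kcna6 on chromosome 6 (126532551 to 126740674 on GRCm38), and all 3 were lower in TKO D8, with log2 fold changes of -2.53 for Kcna5 and -1.46 for Kcna6. The cluster of Kcna2, Kcna3 and Kcna10 on chromosome 3 was split, with Kcna2 lower, Kcna3 higher and Kcna10 not tested.

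The 9 voltage-gated genes that were higher in TKO D8 included low and falling genes of WT. Kcna7 had 46 counts in TKO D8 and 1 in WT D8, a ratio of 51.5 with a counting interval of 8.79 to 2077. Kcnh6, an Erg channel, had 4.79 and 3.67 CPM in TKO D8, against 0.882 and 0.419 CPM in WT D8 (log2 fold change 2.68, SE 0.29, adjusted p = 2.46e-07 in edgeR). Kcnh3 had 4.16 and 3.92 CPM in TKO, against 1.08 and 0.569 CPM in WT (log2 fold change 2.28). Kcnc4, the Kv3.4 channel, had 1.43 and 1.84 CPM in TKO, against 0.569 and 0.0899 CPM in WT (log2 fold change 2.28), a call lost without WT D8 replicate 2. In WT, Kcnh6, Kcnh3 and Kcna7 were all lower at D8 than at D0. Others of the 9 did not fall in WT. Kcna3 had 154 counts in WT D8 and 2 in WT D0, a ratio of 69.8 with a counting interval of 19.0 to 582. Kcnq3 and Kcnq5 had their highest WT means at D8.

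Silent subunits, which pair with Kv2 pores, held 5 higher and 2 lower of 10 at D8, with a median log2 fold change of 0.91. Kcng3 had 4.12 and 3.001 CPM in TKO D8, against 0.114 and 0.240 CPM in WT D8 (log2 fold change 4.31, SE 0.41, adjusted p = 3.93e-08 in edgeR). Kcns3 had 4.09 and 4.32 CPM in TKO, against 0.370 and 0.210 CPM in WT (log2 fold change 3.83, SE 0.27, adjusted p = 8.01e-10 in edgeR). Kcns2 had 2.13 and 1.56 CPM in TKO, against 0.199 and 0.0599 CPM in WT (log2 fold change 3.77, SE 0.45). All 3 were lower in WT D8 than in WT D0, and in TKO Kcng3 was higher at D8 than at D0. In TKO all 3 were higher at D8 than at D6, with log2 fold changes of 2.81 for Kcng3, 2.38 for Kcns3 and 2.22 for Kcns2. The pluripotency markers moved with them in TKO, at a sum of 896 and 844 TPM in D8 against 149 and 115 TPM in D6, and their part in these values was not tested.

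The Kv2 pore Kcnb2 was lower in the same libraries, as given above. Not all silent subunits were higher in TKO D8. Kcng1, highest among them at D4, had 5.03 and 5.82 CPM in TKO D8 and 5.66 and 5.09 CPM in WT D8, which overlap. At D0 Kcng1 had 4.49 and 4.25 CPM in TKO, against 1.53 and 0.877 CPM in WT (log2 fold change 1.85, SE 0.29, adjusted p = 6.61e-05 in edgeR).

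Two-pore channels, which carry the leak current, held 5 higher and 4 lower of 11 tested at D8 (all genes 35.8% and 31.8%). Kcnk9 had 0.454 and 0.337 CPM in TKO D8, against 37.1 and 35.6 CPM in WT D8 (log2 fold change -6.52, SE 0.23, adjusted p = 1.28e-13 in edgeR). It was already apart at D6, with 0.695 and 0.737 CPM in TKO and 27.1 and 24.4 CPM in WT (log2 fold change -5.16, SE 0.21), and at D4, with 0.286 and 0.297 CPM in TKO and 0.592 and 0.981 CPM in WT. At D0 and D2 no library was above 0.183 CPM and the test was not passed. Kcnk9 lies on chromosome 15 from 72501089 to 72546340 (GRCm38, minus strand), in a region known for imprinted expression in the brain.

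Genes within 500 kb of Kcnk9 were read next to it, a choice made after its values were seen. Trappc9, a trafficking gene that adjoins Kcnk9, had 24.6 and 23.7 CPM in TKO D8, against 52.8 and 55.5 CPM in WT D8 (log2 fold change -1.16, SE 0.06). Col22a1, a collagen gene on the other side, had 15.5 and 16.2 CPM in TKO, against 24.1 and 25.4 CPM in WT (log2 fold change -0.64, SE 0.13). Both stood at 15.5 CPM or more in TKO at D6 and D8. At D6 Trappc9 was lower in TKO (log2 fold change -0.58, SE 0.06) and Col22a1 was not called, at a log2 fold change of -0.07. Peg13, a non-coding gene of this region, was not analysed here.

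The TREK channels differed between genotypes as well. Kcnk10 had 5.70 and 5.51 CPM in TKO D8, against 25.7 and 24.5 CPM in WT D8 (log2 fold change -2.16, SE 0.20, adjusted p = 3.52e-08 in edgeR). At D6 it was higher in TKO, at 2.96 and 4.28 CPM against 2.48 and 1.99 CPM in WT (log2 fold change 0.68). Kcnk2 had 2.03 and 1.99 CPM in TKO D8, against 4.32 and 4.61 CPM in WT D8 (log2 fold change -1.15). Kcnk3, the acid-sensitive channel TASK-1, had 0.349 and 0.337 CPM in TKO, against 2.33 and 2.25 CPM in WT (log2 fold change -2.72), a call lost with counts from length-scaled TPM.

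Other two-pore channels were higher in TKO D8. Kcnk1 had 52.4 and 48.1 CPM in TKO, against 12.8 and 12.2 CPM in WT (log2 fold change 2.01, SE 0.12, adjusted p = 6.97e-11 in edgeR). Kcnk1 was also higher in TKO at D0, at 29.5 and 26.5 CPM against 18.4 and 14.5 CPM in WT (log2 fold change 0.77). Kcnk5 had 26.3 and 28.0 CPM in TKO D8, against 6.94 and 7.61 CPM in WT D8 (log2 fold change 1.90, SE 0.11). Kcnk6, the TWIK-2 channel, had 7.17 and 7.01 CPM in TKO, against 1.99 and 2.10 CPM in WT (log2 fold change 1.79). At D6 Kcnk5 had 11.6 and 10.1 CPM in TKO, below its TKO D8 libraries, and 6.51 and 7.12 CPM in WT, which overlap its WT D8 libraries.

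Inward rectifiers held 3 higher and 1 lower of 10 at D8. Kcnj3, the pore GIRK1 opened by G proteins, had 12.7 and 14.2 CPM in TKO D8, against 2.30 and 1.77 CPM in WT D8 (log2 fold change 2.72, SE 0.21, adjusted p = 2.85e-09 in edgeR). On the first days it was lower in TKO, with 9.02 and 9.10 CPM at D2 against 23.7 and 19.0 CPM in WT (log2 fold change -1.23). Kcnj11, the pore Kir6.2 of the ATP-sensitive channel, had 0.385 and 0.337 CPM in TKO D8, against 4.55 and 5.66 CPM in WT D8 (log2 fold change -3.81, SE 0.36, adjusted p = 4.06e-08 in edgeR). Kcnj11 was called lower in TKO at D0, D4, D6 and D8, and TKO D0 held 3 counts of it in 2 libraries against 50 in WT D0, a ratio of 0.0665 with a counting interval of 0.0133 to 0.206.

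Channels grouped as ion-activated held none higher and 3 lower of 8 at D8. They were Kcnn1, Kcnn3 and Kcnma1. Kcnma1, the large-conductance BK pore, had 6.15 and 7.01 CPM in TKO D8, against 18.8 and 16.2 CPM in WT D8 (log2 fold change -1.41, SE 0.16). Among its transcripts, Kcnma1-205 had 0.59 and 0.71 TPM in TKO D8, against 2.82 and 2.42 TPM in WT D8. The most abundant over all libraries was Kcnma1-227, whose values are not given here, so Kcnma1-205 does not stand for the gene. The division of reads among transcripts of 1 gene is an estimate. Kcnn1, a small-conductance channel, had 5.21 and 4.47 CPM in TKO, against 16.01 and 14.8 CPM in WT (log2 fold change -1.67). Kcnt1, opened by sodium, was apart at D2, with 3.63 and 4.53 CPM in TKO against 0.503 and 0.844 CPM in WT (log2 fold change 2.55, SE 0.30, adjusted p = 3.74e-06 in edgeR).

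Accessory subunits held 3 higher and 5 lower of 11 at D8 (all genes 35.8% and 31.8%). Kcnip1, which assists Kv4 channels such as Kcnd3, had 0.349 and 0.0919 CPM in TKO D8, against 3.95 and 4.01 CPM in WT D8 (log2 fold change -4.19, SE 0.46, adjusted p = 7.56e-07 in edgeR). It was lower at D6 as well, at 0.637 and 0.737 CPM in TKO against 6.18 and 5.00 CPM in WT. Kcnip1 overlaps Kcnmb1 on the opposite strand, and whether strand was used in counting is not given in the sources used here. Kcnip3, a calcium-binding subunit and repressor, was higher in TKO D8, at 10.9 and 10.8 CPM against 5.49 and 5.54 CPM in WT (log2 fold change 0.98). Kcne1l had 2.98 and 3.83 CPM in TKO D6, against 0.455 and 0.132 CPM in WT D6 (log2 fold change 3.49). Kcnmb4, the BK beta subunit of neurons, was lower in TKO D8 together with its pore Kcnma1 (log2 fold change -1.52).

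**Figure D4:**
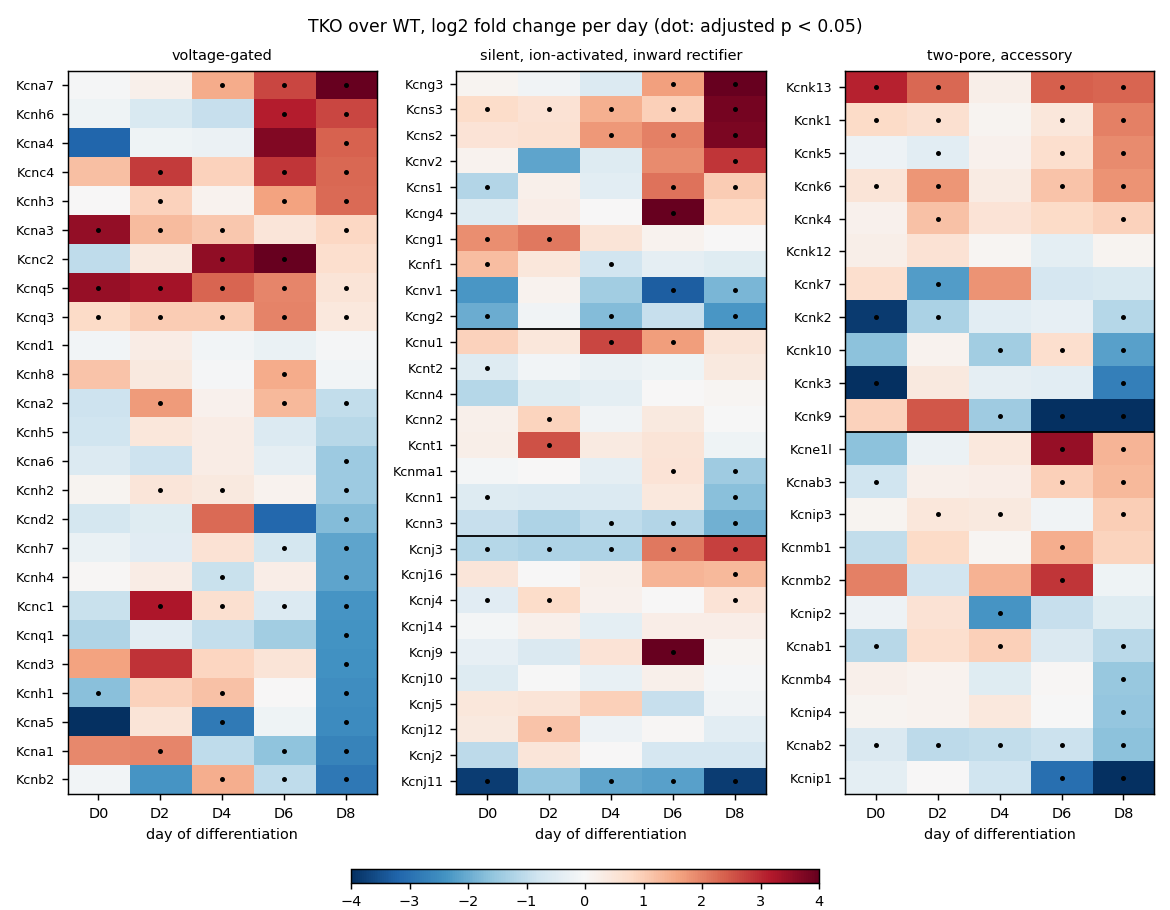
Log2 fold change of TKO over WT (colour, red higher in TKO, blue lower) for 75 of the 79 tested potassium channel genes (rows, by family and by the D8 value) on each day (columns). Black dots mark an adjusted p under 0.05. Red rows at the top of the silent and two-pore blocks and blue rows at the foot of every block show higher and lower genes at D8, and Kcnk9 is blue from D4 on.

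Whether the change from stem cells to D8 differed between genotypes was tested as an interaction, the TKO change minus the WT change. Of the 79 genes, 16 had a higher change in TKO and 21 a lower one, where 29.3% and 22.9% of all genes tested did. Voltage-gated pores held 3 higher and 12 lower of 29, silent subunits 4 and 2 of 10, and two-pore channels 4 and 1 of 11. The most negative difference was that of Kcnk9 (log2 -7.43, SE 0.97, adjusted p = 4.6e-06 in edgeR), and others below 0 were Kcna1 (-4.57), Kcnd3 (-4.04), Kcnq5 (-2.98) and Kcnb2 (-2.74). The Kcna1 value rests on 1 count in WT D0 and 4 in TKO D0. Its call was lost without WT D0 replicate 2 and without TKO D0 replicate 2 (-0.33), and without WT D0 replicate 1 it was -6.91. The Kcnd3 value was -6.24 without WT D0 replicate 2, and the Kcnb2 call was lost without TKO D0 replicate 1. The most positive was that of Kcna7 (log2 5.40, SE 0.99, adjusted p = 0.000176 in edgeR), followed by Kcng3 (4.21), Kcnj3 (3.86), Kcns2 (3.23), Kcns3 (3.10) and Kcnh6 (2.84). The Kcna7 value rests on 1 count in WT D8, so the fitted Kcna7 and Kcna1 values depend on the fit's handling of low counts.

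Kcng3 and Kcnj3 changed in opposite directions. From D0 to D8 they rose in TKO, with log2 fold changes of 2.59 for Kcng3 and 2.54 for Kcnj3, and fell in WT, with -1.62 and -1.32. Kcns2, Kcns3, Kcnh6 and Kcna7 were called lower at D8 in WT, and in TKO their D8 against D0 values of -0.39, -0.25, 0.30 and -0.74 did not pass. Kcnd3, Kcna1, Kcnb2 and Kcnq5 rose in both genotypes, and less in TKO.

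**Figure D5:**
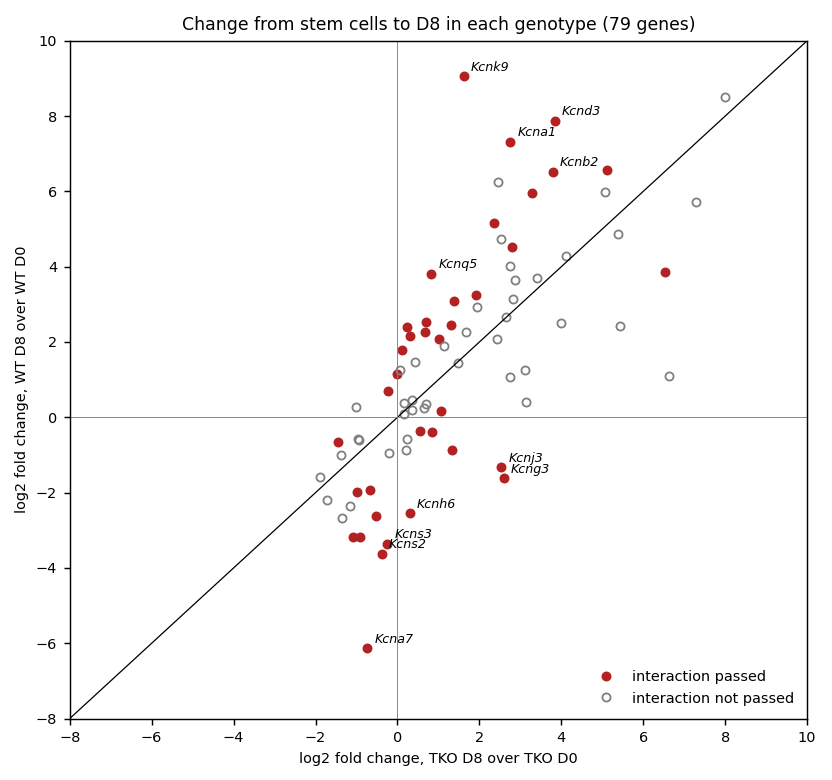
Log2 fold change of D8 over D0 in TKO (horizontal axis) and in WT (vertical axis) for the 79 tested genes. Filled red points passed the interaction test and the diagonal marks equal change. Kcnk9, Kcnd3 and Kcna1 lie above the diagonal, and Kcna7, Kcng3, Kcnj3, Kcns2, Kcns3 and Kcnh6 lie below it.

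Other ion channel genes were read in the same fit for setting. Of 24 voltage-gated calcium channel genes tested, 3 were higher and 18 lower in TKO D8 (median log2 fold change -1.33, all genes 35.8% and 31.8%), and of 11 sodium channel genes 1 was higher and 7 were lower (median -1.17). Scn3a, a sodium channel of the developing brain, had 15.8 ± 0.0959 CPM in TKO D8 and 86.0 ± 1.86 CPM in WT D8 (SD, n = 2 each; log2 fold change -2.44). At D6 the counts ran the other way, with 15 higher and 3 lower calcium channel genes and 6 higher and 2 lower sodium channel genes (all genes 20.9% and 20.3%). HCN channels, pacemaker relatives of potassium channels, held none higher and 2 lower of 4 at D8, namely Hcn3 and Hcn4. Partner proteins held none higher and 4 lower of 11, with Dpp10, a partner of Kv4 channels, at a log2 fold change of -2.16.

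The REST complex, which represses neuronal genes outside neurons, held 3 higher and 4 lower of 8 at D8 (all genes 35.8% and 31.8%). Rest itself had 128 ± 6.29 CPM in TKO D8 and 64.3 ± 1.01 CPM in WT D8 (SD, n = 2 each; log2 fold change 0.99, SE 0.07, adjusted p = 1.2e-09 in edgeR). At D0 Rest was lower in TKO, at 331 ± 9.55 CPM in TKO and 451 ± 23.9 CPM in WT, and at D2 as well, at 134 ± 11.7 CPM in TKO and 239 ± 0.456 CPM in WT (SD, n = 2 each). At D6 Rest measured 77.1 ± 7.36 CPM in TKO and 78.6 ± 2.17 CPM in WT. The part of Rest in the channel values was not tested.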

How the data were processed

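RNA was sequenced from 20 libraries of polyadenylated RNA, 2 biological replicates for each of 10 groups per the labels. The deposited tables give expected counts per transcript, estimated by kallisto per the submitters' processing notes, which also name GRCm38 and Trim Galore 0.6.2. The deposited TPM values are the authors' length-scaled values, per the file headers. Other deposited values, transcript lengths and effective lengths in bases, gave the length-scaled alternative.

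Estimated counts were summed per GENCODE M21 gene (116728 of 119414 transcripts matched) and rounded. A single model of all 20 libraries was fitted in edgeR 4.0.16, with TMM scaling and a count filter by group (filterByExpr). Its quasi-likelihood F test was adjusted by Benjamini-Hochberg over 18555 genes, with a threshold of 0.05. Each SE is the absolute log2 fold change divided by the square root of that test's F statistic. It is thus not a direct estimate of spread, and it does not show how far low counts can move a fold change. The common biological coefficient of variation was 0.0689 with 10 residual degrees of freedom. CPM values are those counts per 1e+06 after TMM. The fit was also run on simulated data, and the outcome is not given here. Counting intervals (95%) cover counting error only. With 1 to 3 counts in a group over its 2 libraries, a ratio of counts replaces the fold change between 2 groups, and interaction values stay as fitted.

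The genes, families and lists were chosen with earlier results of these data known. Named genes were up to 6 highest and 6 lowest genes past the threshold per main comparison (at least 1 CPM in a group, libraries not overlapping), the 5 most abundant in D0 and D8, those called on all 5 days, Kcnq1 and Kcnk9. Others serve as family examples and were chosen after their values were seen. Some genes that the rule selects are not reported here. Families follow symbol stems. Alternatives were relative log expression scaling, no count filter, a replicate block, length-scaled TPM counts, stricter thresholds, DESeq2 1.42.0, only the groups compared, protein-coding genes alone and each library left out.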

Additional observations from a re-analysis of the deposited data

Results flagged for a closer look

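The change from D0 to D8 differed between TKO and WT for 37 of the 79 tested potassium channel genes, by the edgeR interaction term of genotype and day. It was higher in TKO for 20.3% and lower for 26.6% of the 79, beside 29.3% and 22.9% of all genes tested. The count is thus not a trait of potassium channel genes. The following values are the TKO change minus the WT change on the log2 scale for genes chosen by rule. Above 0 were Kcna7 (5.40), Kcng3 (4.21), Kcnj3 (3.86), Kcns2 (3.23), Kcns3 (3.10) and Kcnh6 (2.84). Below 0 were Kcnk9 (-7.43), Kcna1 (-4.57), Kcnd3 (-4.04), Kcnq5 (-2.98) and Kcnb2 (-2.74). The Kcna7 and Kcna1 values each rest on a group with 1 count, WT D8 for Kcna7 and WT D0 for Kcna1, and are fitted values that depend on the handling of low counts.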

How the results depend on the processing

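No named log2 fold change reversed its sign in 2632 alternative values of 94 results, and 2558 of them stayed past the threshold. These genes had been chosen as past the threshold, and the stricter thresholds reuse the reported value, so they cannot reverse it. Most fits with 1 library left out dropped a library outside the comparison. DESeq2 was read for counts of calls and not for these values. Counts of calls stayed within 1.5 times in 455 of 464 alternatives. At an adjusted p under 0.01 there were 14 calls for TKO against WT at D0 (25 as reported) and 18 at D2 (28). At 2-fold or more there were 14 at D0, 18 at D2 and 19 for TKO D2 against D0 (33), and with only the groups compared 15 at D0. Stricter thresholds pass fewer genes by construction, and for the fit of fewer groups the cause was not tested.

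Leaving out each library in turn gave 18 to 26 calls for TKO against WT at D0, 17 to 30 at D2, 14 to 29 at D4, 31 to 40 at D6 and 49 to 57 at D8. Against D0 it gave 27 to 34, 46 to 54, 53 to 59 and 56 to 61 in WT from D2 to D8, and 21 to 35, 36 to 48, 49 to 59 and 47 to 55 in TKO. D8 against D6 gave 39 to 49 in WT and 30 to 44 in TKO, and the interaction 34 to 39. The counts that moved most were 17 at D2 without WT D2 replicate 2, 14 at D4 without TKO D4 replicate 2 and 21 for TKO D2 against D0 without TKO D0 replicate 1. A lone library was assumed to vary like the other groups.

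Replicate numbers did not pair the libraries, with correlations of same-numbered deviations between -0.0268 and 0.0527. With the replicate number as a block, 23 genes passed for TKO against WT at D0 and 55 at D8. Depth and 2 libraries per group limit what can be read from genes under 1 CPM.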
